A study of Mus musculus with 24 samples.

Results

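The axon guidance ligand and receptor genes were taken as the protein-coding genes whose symbol begins with Sema, Robo, Slit, Epha, Ephb, Efna, Efnb, Ntn or Nrp and a digit, or with Plxn or Unc5, together with Dcc and Dab1. Of 72 such genes, 62 were the nearest gene, at most 50 kb away, of at least 1 accessible region. They held 454 of the 52773 regions assigned to a gene, out of 63188 in all. Efnb3, Epha8, Epha10, Ntn3, Ntn5, Plxnb3, Sema5b, Unc5a, Unc50 and Dcc had no region. Unc50 and Unc5cl match by the letters of their symbols and are not netrin receptors.

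ATAC-seq, a transposase assay of open DNA, was run on cells sorted from the skin of mice of a CD1 x C57BL/6J cross that carried a Cre driver and the R26-YFP reporter. Unwounded Krt19-CreER/R26-YFP mice gave 4 samples of hair follicle stem cells, taken at day 0, and 4 and 3 samples of epidermal stem cells, taken at days 0 and 80. With a partial-thickness wound, mice of that genotype gave wound-responsive hair follicle stem cell progeny, as 3 samples at day 3, 2 at day 7 and 3 at day 80. Sox9-CreER/R26-YFP mice with a full-thickness wound gave what the labels call wound-responsive epidermal stem cell progeny, as 3 samples at day 7 and 2 at day 80. The 2 wounds therefore differ in genotype and labelled origin as well as in depth, and these cannot be told apart. The sources used here give neither ages nor sort gates.

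Axon guidance molecules steer growing neurites and many other moving cells by attraction and repulsion at contact or over a distance. Secreted and membrane-bound semaphorins signal through plexins, with neuropilins as co-receptors for most class 3 semaphorins. Slit proteins bind Robo receptors, netrins bind Dcc and Unc5 receptors, and ephrins bind Eph receptor tyrosine kinases, with signals passing into both of the touching cells. Dab1 is the intracellular adaptor of the reelin pathway. In skin these families are known from innervation, vessel growth, hair follicle development and keratinocyte movement.

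Each group came as 1 deposited peak list, of 29365 to 37214 peaks, so replicate error cannot be had and groups were not tested against each other. A region was present in a list when one of its peaks overlapped it. The 95% interval beside each share (Clopper-Pearson, exact) reflects counting error alone and treats the regions of 1 gene as independent. A peak carried by few cells and a weaker peak in all cells cannot be told apart. Lists differed in threshold, with a lowest −log10 p of 7.864 (day 80 epidermis) to 40.19 (day 7 partial-thickness), and in median peak width, from 460 bp (day 80 full-thickness) to 987 bp (day 3 partial-thickness). The peak names inside the day 0 epidermal list carry a control tag for day 7, and the list was used under its deposited name. The 7 hair follicle stem cell markers had 43 regions in the list of hair follicle stem cells (the follicular list), 38 in each early partial-thickness list and 17 to 24 in the others. The 7 keratinocyte markers had the fewest regions, 18 with none at Krt5, in the day 0 epidermal list, 24 in the follicular list and 25 to 35 in the other lists, and the part of this in the results on the epidermal side was not tested. Fibroblast markers had 15 regions at 5 of 6 genes in the follicular list and 3 to 5 elsewhere. Endothelial markers had 6 to 16, with the highest numbers, 15 and 16, in the day 3 and day 7 partial-thickness lists and no Kdr region in any list. Schwann and nerve markers had 9 to 14, melanocyte markers 7 to 13 with Tyr at 0 throughout, and immune markers 0 to 4.

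Member genes were long and their regions lay mostly away from gene ends. Their median length was 95.3 kb, against 25.1 kb for all genes with a region, and their median number of regions 4.5 against 2. Within 1 kb of a gene end lay 51 member regions (11.2%, 8.48 to 14.5), beside 22.3% of all assigned regions. Inside a gene lay 76.9% (72.7 to 80.7), beside 69.2%. All 8 lists held 74 member regions (16.3%, 13.0 to 20.0), where 24.4% of all assigned regions were held by all 8. A single list held 127 (28.0%), beside 24.9%. The follicular list alone held 48 (10.6%, 7.90 to 13.8), beside 7.44%. Slit3 (34 regions), Efna5 (31), Robo1 (29), Robo2 (27), Sema5a (26) and Plxna2 (21) had the most, and the 14 genes with at least 10 regions held 273 of the 454.

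**Figure D1:**
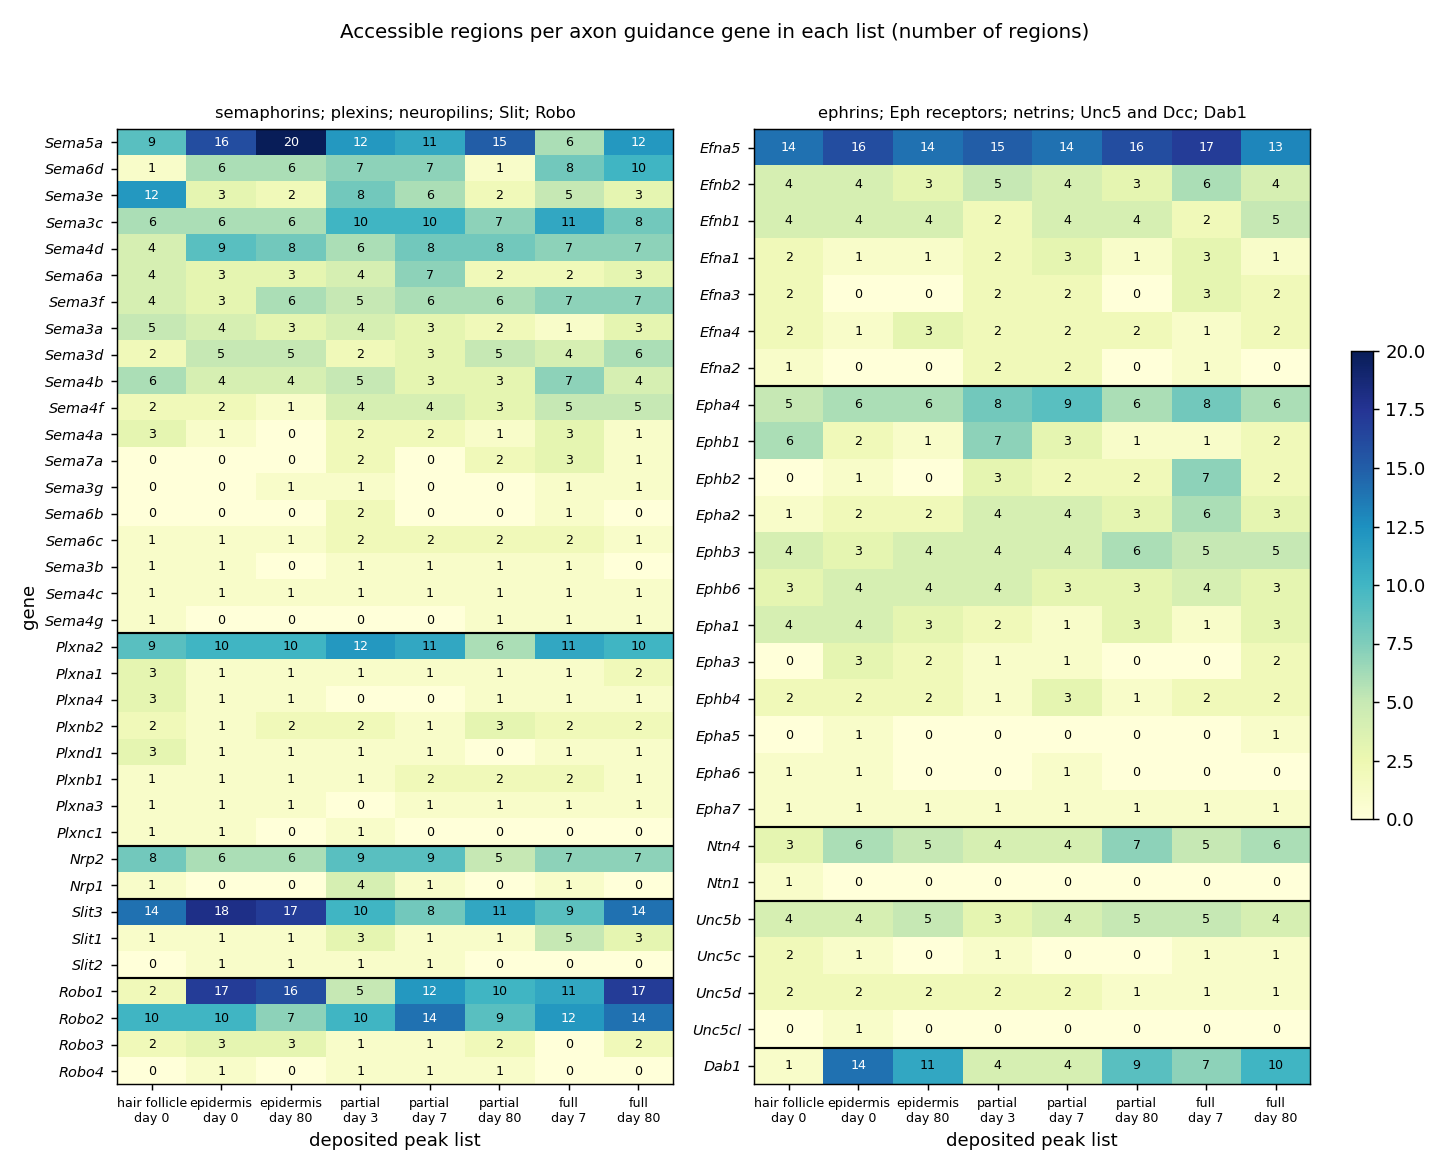
Number of accessible regions (cell value and colour) of each of the 62 genes with a region (rows, by family, separated by lines) in each of the 8 deposited peak lists (columns). Robo1 and Dab1 are near empty in the follicular list, with 2 and 1 regions, and Sema3e is fullest there, with 12.

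The starts of 62 members are in the RefSeq promoter table, and 46 regions covered a start of 43 genes. Of these, 24 were in all 8 lists, among them the starts of Epha4, Ephb3, Efnb2, Sema3c, Sema5a and Unc5b, and 22 differed between lists. How many start regions differ over all genes was not counted, so the 22 of 46 have no background here. The start of Ephb2, which encodes an Eph receptor that binds B-class ephrins, lay under a region (chr4:136834736-136836592, mm10) of 4 wound lists and of no unwounded list. Its peak stood at percentile 58.1 by score within the day 3 partial-thickness list, 33.4 at day 7, 79.2 in the day 7 full-thickness list and 15 in the day 80 full-thickness list. The start of Slit3, a secreted Robo ligand, showed the reverse: its region (chr11:35120781-35121571) was in all 3 unwounded lists, at percentiles 21.6 (hair follicle), 24.5 (day 0 epidermis) and 1.99 (day 80 epidermis), and in no wound list. A start of Dab1 (chr4:104366804-104368618) had a peak in every list but the follicular list, at percentiles 73.5 and 45.2 in the epidermal lists and 14.2 to 20.1 in the 5 wound lists. Dab1 has 2 starts in the promoter table, and this region is centred 748.2 kb downstream of the first, inside the gene. No Dab1 region lay within 1 kb of a gene end. The start of Efna3, a membrane-anchored A-class ephrin (chr3:89320432-89323347), was in the follicular list, both early partial-thickness lists and both full-thickness lists, and in no unwounded epidermal list, although its hair follicle peak was among the weakest of that list, at percentile 0.107.

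The 250 bases before these starts are shown because each stands for a different pattern across the lists, and the 4 genes were chosen after the patterns were seen. They are given from 5′ to 3′ along the gene, from RefSeq sequence of GRCm38.p6, which is the assembly of mm10, at chr4:136836013-136836262 (minus strand) for Ephb2, chr11:35121206-35121455 (plus) for Slit3, chr4:104367288-104367537 (plus) for Dab1 and chr3:89322940-89323189 (minus) for Efna3. Capitals mark matches on either strand to the AP-1 motif TGANTCA, the GC box GGGCGG, a Sox motif CTTTGT or a Stat motif TTCNNNGAA.
Ephb2: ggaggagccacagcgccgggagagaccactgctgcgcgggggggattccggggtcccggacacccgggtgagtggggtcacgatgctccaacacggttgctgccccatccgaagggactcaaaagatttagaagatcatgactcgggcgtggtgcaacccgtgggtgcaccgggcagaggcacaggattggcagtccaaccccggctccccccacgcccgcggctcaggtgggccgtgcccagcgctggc
Slit3: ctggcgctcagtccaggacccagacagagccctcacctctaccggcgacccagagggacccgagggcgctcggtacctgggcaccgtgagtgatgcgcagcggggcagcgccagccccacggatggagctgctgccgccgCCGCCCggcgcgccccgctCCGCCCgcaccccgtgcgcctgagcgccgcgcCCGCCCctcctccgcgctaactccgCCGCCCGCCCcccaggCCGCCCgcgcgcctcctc
Dab1: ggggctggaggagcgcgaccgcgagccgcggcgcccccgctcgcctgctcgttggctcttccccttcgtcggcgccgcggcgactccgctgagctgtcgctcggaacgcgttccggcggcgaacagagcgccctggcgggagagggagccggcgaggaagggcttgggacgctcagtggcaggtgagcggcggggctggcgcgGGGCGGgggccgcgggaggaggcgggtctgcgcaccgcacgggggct
Efna3: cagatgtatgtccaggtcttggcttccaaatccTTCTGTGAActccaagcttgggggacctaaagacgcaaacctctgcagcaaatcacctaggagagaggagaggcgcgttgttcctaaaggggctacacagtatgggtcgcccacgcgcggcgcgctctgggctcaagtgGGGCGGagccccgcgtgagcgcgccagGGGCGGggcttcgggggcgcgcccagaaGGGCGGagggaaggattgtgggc
No capitals stand in the Ephb2 window. GC boxes make up the capitals of Slit3 (6, partly overlapping) and Dab1 (1), and Efna3 has 3 GC boxes and 1 Stat motif. Over the 32851 windows of the table, 32.7% held a GC box, 7.02% the Stat motif, 6.75% the AP-1 motif and 16.5% the Sox motif. The 4 windows were 63.6% (Efna3), 68.4% (Ephb2), 78.0% (Dab1) and 78.8% (Slit3) G or C, against a median of 52.4%.

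The ephrin-A starts did not share 1 pattern. The start of Efna5 was in all 8 lists, and that of Efna4 was missing from the day 0 epidermal list alone. Beside an Efna1 start region held by all 8 lists, a further one (chr3:89280285-89282608) was in the follicular list and all 3 early wound lists, and the start of Efna2 (chr10:80179146-80180211) in the hair follicle, day 3 and day 7 partial-thickness lists, at percentiles 11.2, 2.37 and 1.05. Neither was in an unwounded epidermal list or a day 80 list. The starts of Sema4d, a plexin-B ligand, Slit2, Epha3 and Epha5 had no peak in the follicular list and one in the day 0 epidermal list. A start of Sema4f, a transmembrane semaphorin (chr6:82939340-82940160), was at percentile 79.8 at day 3, 45.6 at day 7 and 8.32 in the day 80 full-thickness list, and in no other list. That of Plxnb1 was at percentiles 14.6 and 13 in the day 7 and day 80 partial-thickness lists and 32.1 in the day 7 full-thickness list alone. Beside a Plxnb2 start region held by all 8 lists, a further one was in the day 80 partial-thickness list alone, at percentile 18.9. The starts of Nrp2, a class 3 semaphorin co-receptor, and Plxnd1, the receptor of Sema3e, had a peak in 7 lists and none in the day 80 partial-thickness list.

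**Figure D2:**
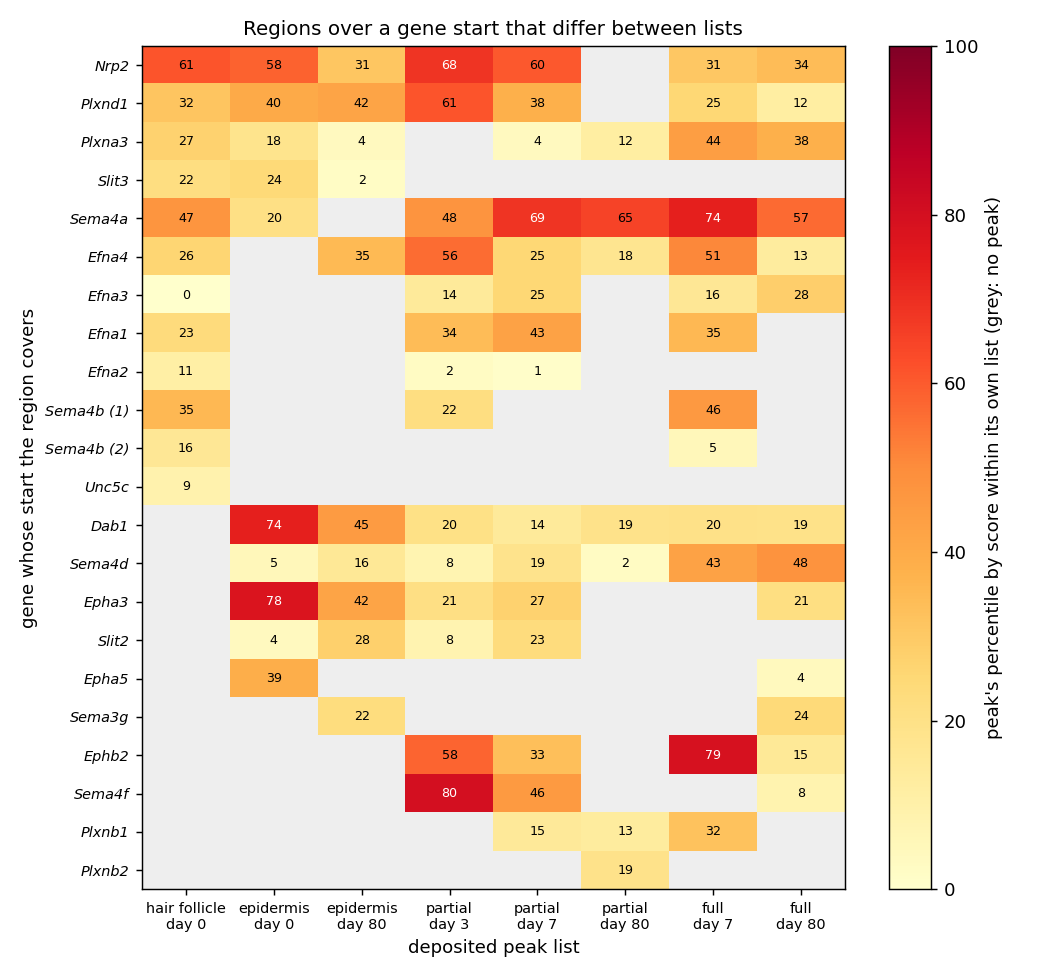
The 22 regions over a gene start that differ between lists (rows) in the 8 deposited peak lists (columns). Colour and number give the percentile of the peak by score within its own list, and grey cells have no peak. Ephb2, Sema4f, Plxnb1 and Plxnb2 have no peak in the 3 unwounded lists, and Slit3 has none in the 5 wound lists.

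The stem cells of the unwounded hair follicle and epidermis were compared first. Of 302 member regions in either day 0 list, 79 were in the follicular list alone (26.2%, 21.3 to 31.5), near the 24.3% of all assigned regions. The epidermal list alone held 110 (36.4%, 31.0 to 42.1), against 28.0% of all. Without Robo1 and Dab1, which were known from earlier results of these data to lean this way, that share was 30.3% (24.8 to 36.1). Over regions more than 1 kb from a gene end it was 41.3% (35.3 to 47.6), beside 35.9% of all such regions. With the day 80 epidermal list as reference it was 33.6% (28.1 to 39.3), beside 29.2%. These intervals include the share of all regions. In genes longer than 100 kb it was 43.9% (37.3 to 50.6), beside 33.5%. These long genes include Robo1 and Dab1, with 15 and 13 of the 100 member regions counted, and the share without them was not computed. Of the 62 member genes with a region, 21 had more regions in the follicular list, 20 had more in the epidermal list and 21 had equal numbers. Over all genes with a region, 21.9% had more and 26.0% fewer in the follicular list, so that both parts were larger among the 62. Member genes had a median of 4.5 regions against 2, and the part of this in the counts was not tested.

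Semaphorin ligands leaned in both directions. Sema3e, a secreted semaphorin that acts through plexin-D1, had 12 regions in the follicular list, 3 in the day 0 and 2 in the day 80 epidermal list. Along the partial-thickness wound it had 8, 6 and 2, and along the full-thickness wound 5 and 3. Its start and a region centred at -31.8 kb were in all 8 lists, and the 10 follicular regions absent from the day 0 epidermal list lay 32.4 to 205.9 kb downstream of the start, within the gene. The strongest of them, chr5:14062738-14064731, stood at percentile 93.2. Sema5a (4 such regions), Sema4b (3) and, with 2 each, Sema4a, Sema3a and Sema3c followed on the hair follicle side. On the epidermal side stood Sema5a, a transmembrane semaphorin with thrombospondin repeats, with 11 regions absent from the follicular list, all 11 of them in both epidermal lists, then Sema4d (5), Sema6d (5) and Sema3d (3).

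Among their receptors, Plxnd1 had 3 regions in the follicular list and 1 in each epidermal list, so that ligand and receptor of the Sema3e pair both had more regions in the hair follicle. Plxna1 and Plxna4, receptors for class 3 and class 6 semaphorins, had 3 in the follicular list and 1 in each epidermal list as well. Plxna2 had 9, 10 and 10, with 5 regions of the hair follicle alone of the day 0 pair and 6 of the epidermis alone. Nrp2 had 8, 6 and 6, and Nrp1, the other neuropilin, 1, 0 and 0.

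The Slit and Robo genes differed within each family. Robo1, the Slit receptor gene with the most epidermal regions, had 15 regions in the day 0 epidermal list and not in the follicular list, of which 11 recurred in the day 80 epidermal list and 8 had a peak in the upper 50% by score. Their centres spread from -467.0 kb, within the longer gene model, to 426.0 kb relative to the RefSeq start. In all, Robo1 had 2 regions in the follicular list, 17 and 16 in the epidermal lists, 5, 12 and 10 along the partial-thickness wound and 11 and 17 along the full-thickness wound. Its start (chr16:72662822-72664506) was in all 8 lists, at percentile 63.4 in the follicular list and 98.7 and 96.9 in the epidermal lists. Robo2, also on chromosome 16, had no lean in number, with 10 regions in each day 0 list and 5 on each side alone. Slit3 had 7 regions on the hair follicle side and 11 on the epidermal side, Slit2 0 and 1, and Slit1 none on either.

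Ephrins and their receptors split between the sides. Efna5, an A-class ephrin, had 7 regions on the hair follicle side and 9 on the epidermal side, and Efna3 2 and 0. Efna1, Efna2 and Efna4 had 1 and 0 each. Ephb1 was the receptor that leaned most to the hair follicle, with 6 regions there, 2 and 1 in the epidermal lists and 4 on the hair follicle side. Epha3 leaned to the epidermis with 0, 3 and 2. Ntn4, a netrin of basement membranes, had 3, 6 and 5 regions with 4 on the epidermal side, among them chr10:93660852-93661951, which was at percentiles 57.8 to 94.1 in the 7 lists other than the follicular list. Ntn1 had 1 region, in the follicular list. The netrin receptor genes Unc5c and Unc5b had 2 and 1 regions on the hair follicle side and 1 each on the epidermal side. Dab1 had 13 on the epidermal side and none on the other, with 1, 14 and 11 regions in the 3 unwounded lists, 4, 4 and 9 along the partial-thickness wound and 7 and 10 along the full-thickness wound. The higher number of fibroblast marker regions in the follicular list goes with all counts of follicular regions above, and its part in them was not tested.

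The 2 epidermal lists give the background for the wounds. Of 253 member regions in either, 45 were in the day 0 list alone (17.8%, 13.3 to 23.1), against 12.0% of all assigned regions, and 30 in the day 80 list alone (11.9%, 8.15 to 16.5), against 16.0%. Sema5a had 16 and 20 regions, Slit3 18 and 17, Robo1 17 and 16 and Dab1 14 and 11.

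Hair follicle progeny in the partial-thickness wound held a smaller share of the epidermal regions of member genes than of all genes. The 110 member regions of the epidermal side were found in part: 33 (30.0%, 21.6 to 39.5) at day 3, 40 (36.4%, 27.4 to 46.1) at day 7 and 62 (56.4%, 46.6 to 65.8) at day 80. Over all assigned regions these shares were 46.0%, 53.0% and 72.4%. Without Robo1 and Dab1 the member shares were 32.9%, 40.2% and 56.1%. Among genes longer than 100 kb, with Robo1 and Dab1 kept, they were 31.0%, 36.0% and 58.0%, where all such genes had 42.4%, 49.8% and 70.1%. With only the upper 50% of peaks by score, the member shares were 38.9% (25.9 to 53.1), 31.5% (19.5 to 45.6) and 51.9% (37.8 to 65.7). All regions under that setting gave 43.1%, 49.3% and 63.0%, and the day 3 and day 80 intervals include these. The day 80 epidermal list held 66.4% (56.7 to 75.1) of the member regions, beside 71.6% of all. In the full-thickness wound the share was 38.2% (29.1 to 47.9) at day 7, beside 54.6% of all, and 62.7% (53.0 to 71.8) at day 80, beside 71.1%.

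By gene, Sema4d already had 3 of its 5 epidermal regions at day 3, and 4 at day 7 and at day 80. Ntn4 had 2, 2 and 4 of 4. Dab1 had 3, 3 and 8 of 13, Robo1 3, 4 and 8 of 15, Sema5a 4, 4 and 9 of 11, Slit3 2, 2 and 5 of 11, and Efna5 2, 3 and 6 of 9. In these genes other than Sema4d the number at day 80 was higher than at day 7. Sema6d, a ligand of plexin-A1, had 1, 2 and 1 of 5, while the full-thickness lists held 2 and 4 of them.

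**Figure D3:**
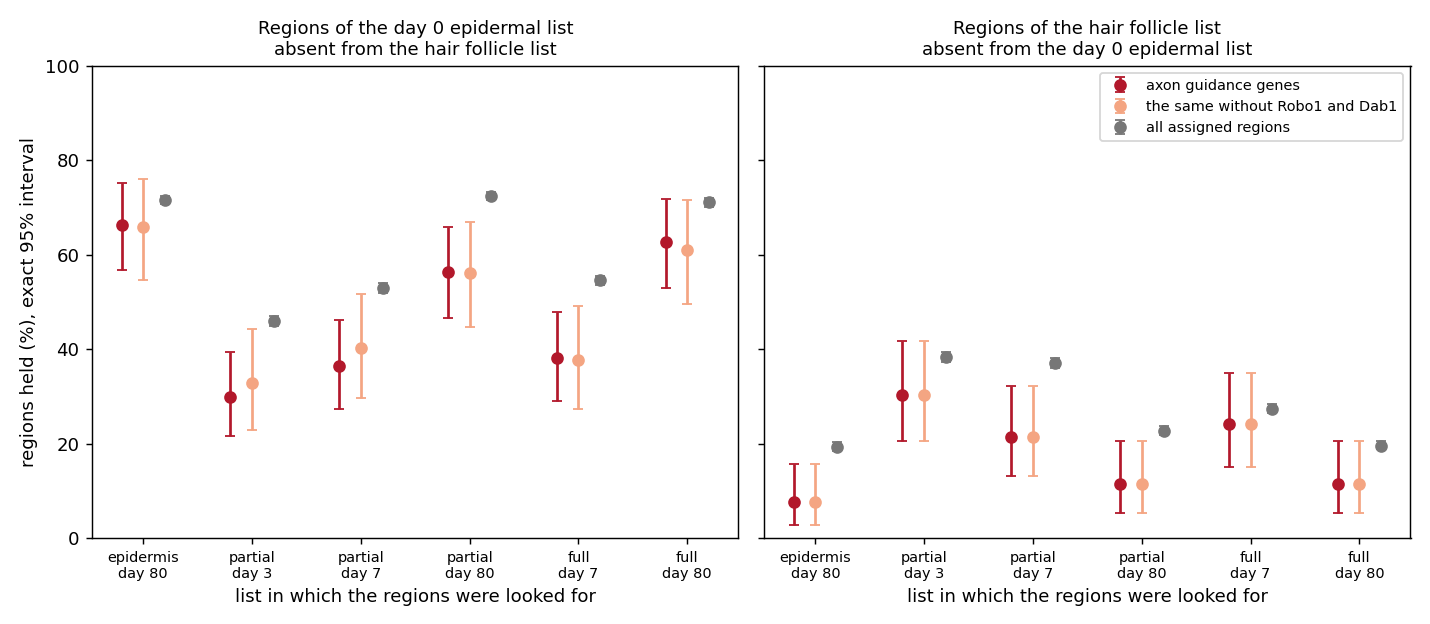
Share (%) of day 0 regions that each of the other 6 lists held, for regions of the epidermis and not the hair follicle (left, 110 member regions) and the reverse (right, 79 member regions). Points are shares, bars exact 95% intervals, and colours the members, the members without Robo1 and Dab1, and all assigned regions; member points lie below those of all regions in every list shown.

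Of the 79 follicular regions of the members that the day 0 epidermal list lacked, 24 (30.4%, 20.5 to 41.8) were found at day 3, 17 (21.5%, 13.1 to 32.2) at day 7 and 9 (11.4%, 5.34 to 20.5) at day 80 of the partial-thickness wound. All assigned regions gave 38.4%, 37.1% and 22.7%. The day 80 epidermal list held 6 (7.59%, 2.84 to 15.8), against 19.4%. Along the full-thickness wound were found 19 (24.1%, 15.1 to 35.0) at day 7 and 9 (11.4%) at day 80, against 27.4% and 19.6%. In the upper 50% of peaks by score the member share was 17.9% at day 3, beside 39.8% of all regions under that setting, and 17.9% at day 80, beside 30.3%. Among genes longer than 100 kb the day 80 share was 5.26%, beside 12.0%.

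Sema3e held the most of them in the early wound. Of its 10 regions, the same 4 were in the day 3 and day 7 lists (centres 38.5, 47.9, 65.3 and 137.4 kb downstream of the start), and none was in the day 80 list. The region at 137.4 kb stood at percentile 8.23 in the follicular list, 88.7 at day 3 and 56.6 at day 7. The full-thickness day 7 list held 2 of the 4. Ephb1 kept 2 of 4 at day 3, 1 at day 7 and none at day 80. Efna5 had 2, 1 and 2 of 7, Plxna2 1, 0 and 0 of 5 and Slit3 1, 0 and 0 of 7.

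**Figure D4:**
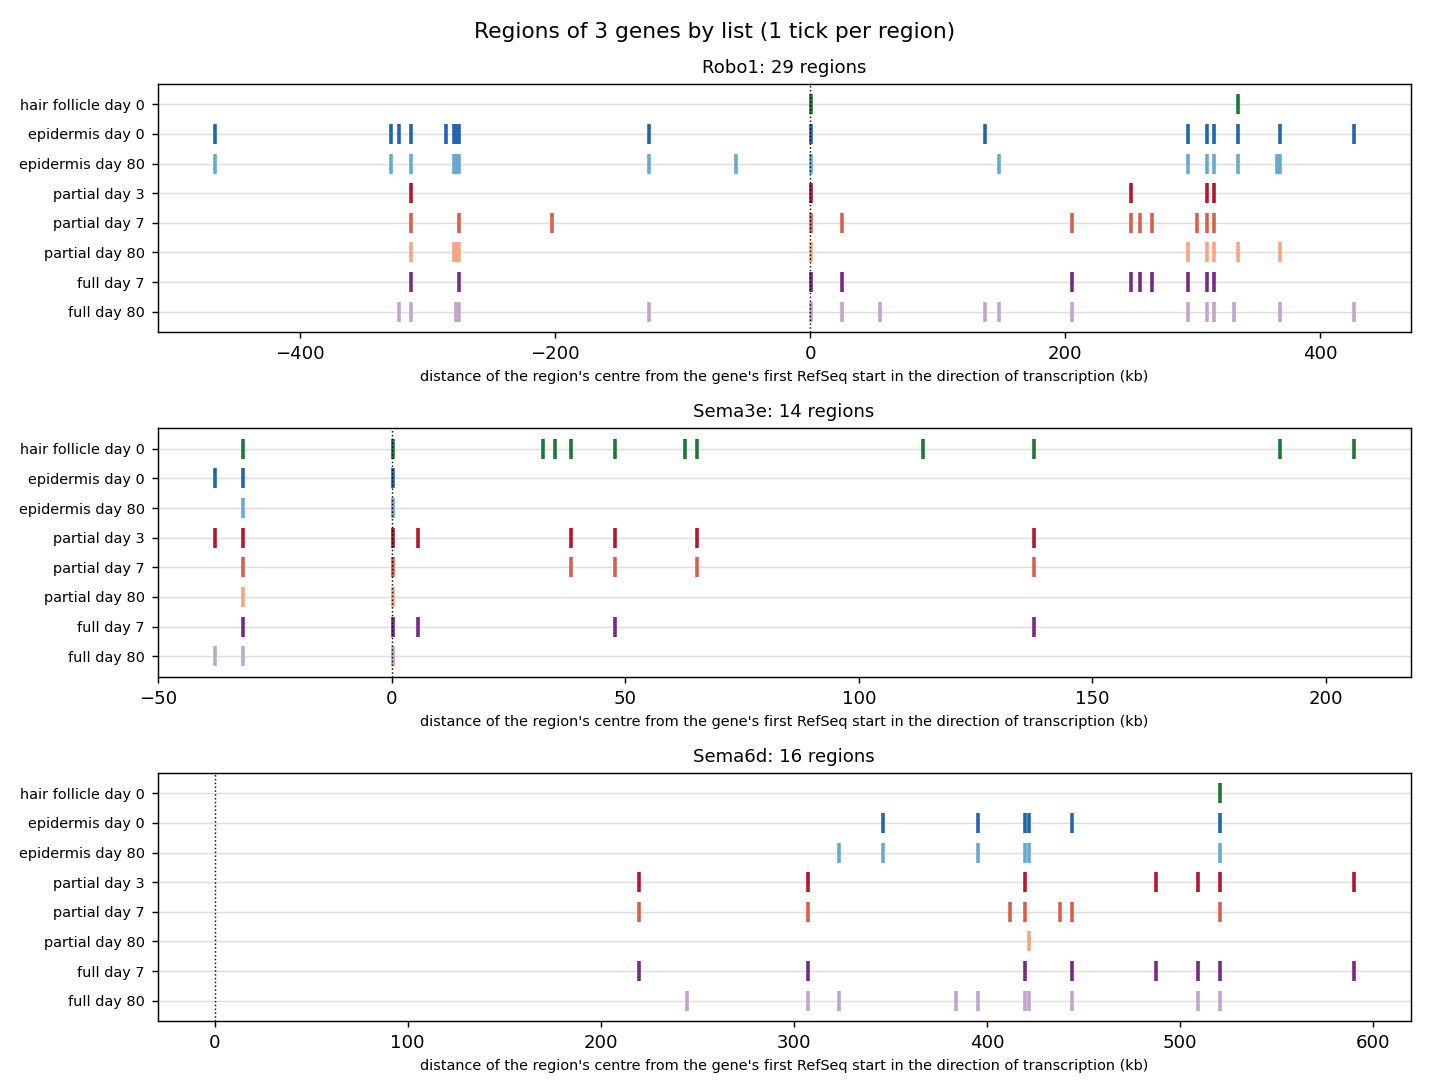
Regions of Robo1, Sema3e and Sema6d (1 tick per region) in the 8 lists (rows), placed by the distance in kb of their centre from the gene's first start in the RefSeq promoter table, which for Robo1 lies inside the longest gene model. The 10 Sema3e regions at 32.4 kb and beyond in the follicular list are missing from both epidermal lists, and Sema6d has 1 tick in the day 80 partial-thickness list.

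The early wound lists also held regions that no unwounded list had. Such wound-gained regions, in a day 3 or day 7 wound list and in none of the 3 unwounded lists, numbered 108 among the members (23.8%, 19.9 to 28.0), near the 24.2% of all assigned regions. All 3 early lists shared 28 of them (25.9%, 18.0 to 35.2), beside 24.7% of all. Among the Eph receptors, Ephb2 had 6 of its 7 regions in this class and Epha2, a receptor of A-class ephrins, 4 of 6. Epha4 had 4 of 12 and Ephb1 3 of 10. Ephb2 had 3 regions at day 3, 2 at day 7 and 7 in the day 7 full-thickness list, and Epha2 4, 4 and 6.

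Sema6d (7) and Sema6a (5) had the most among the semaphorins, followed by Sema7a, Sema4f and Sema3c with 4 each. Sema7a, which is anchored to the membrane by a lipid and also known as an integrin ligand, had no region in an unwounded list, so all 4 of its regions were of this class. The 5 Sema6a regions were held by the day 7 (4) and day 3 (1) partial-thickness lists. Each was in that 1 list alone, at percentiles 7.29 to 22.6 (day 7) and 3.83 (day 3). Nrp2 had 5 and Nrp1 4. Of the 4 Nrp1 regions 3 were in the day 3 list, where the endothelial markers also had 15 regions, and the part of these in the result was not tested. Their peaks lay at percentiles 10.8 to 16.7 of that list.

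Robo2 had 9 wound-gained regions, Robo1 7, Efna5 7, Slit1 4, Plxna2 4 and Slit3 3. All 7 of Robo1 were present at day 7 of the partial-thickness wound, 1 of them also at day 3, and 5 at day 7 of the full-thickness wound. The strongest (chr16:72914017-72914766, 251.2 kb downstream of the start) stood at percentile 79.8 at day 3, 97.6 at day 7 and 94.2 in the full-thickness list, and was in no unwounded and no day 80 list. The 2 day 7 lists together held 277 member regions, of which 50 (18.1%, 13.7 to 23.1) were in the partial-thickness list alone and 61 (22.0%, 17.3 to 27.4) in the full-thickness list alone, beside 13.6% and 19.9% of all assigned regions.

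Some wound-gained regions were still present at day 80. Of the 108, 31 (28.7%, 20.4 to 38.2) were in at least 1 day 80 wound list, beside 23.2% of all assigned regions. With peaks of the upper 50% by score this share was 13.5% beside 25.4%, and with peaks required to cover 50% of a region 19.8% beside 23.9%, so that the side on which the members fell depended on these settings. The partial-thickness list held 10 (9.26%, 4.53 to 16.4), beside 13.6%, and the full-thickness list, which has the narrowest peaks and nearly the lowest threshold, 26 (24.1%, 16.4 to 33.3), beside 15.1%. In all 5 wound lists and no unwounded list were 3 member regions (0.661%), beside 0.771% of all. They lay 13343 bp from Epha2 (chr4:141286674-141287878), inside Nrp2 (chr1:62772008-62772698) and 2130 bp from Sema4f (chr6:82907976-82909754). The Sema4f region was at percentiles 69.5, 73.1 and 37.4 along the partial-thickness wound and 79.9 and 40.8 along the full-thickness wound. The Nrp2 region was at percentile 0.409 in the day 80 partial-thickness list, close to its threshold.

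**Figure D5:**
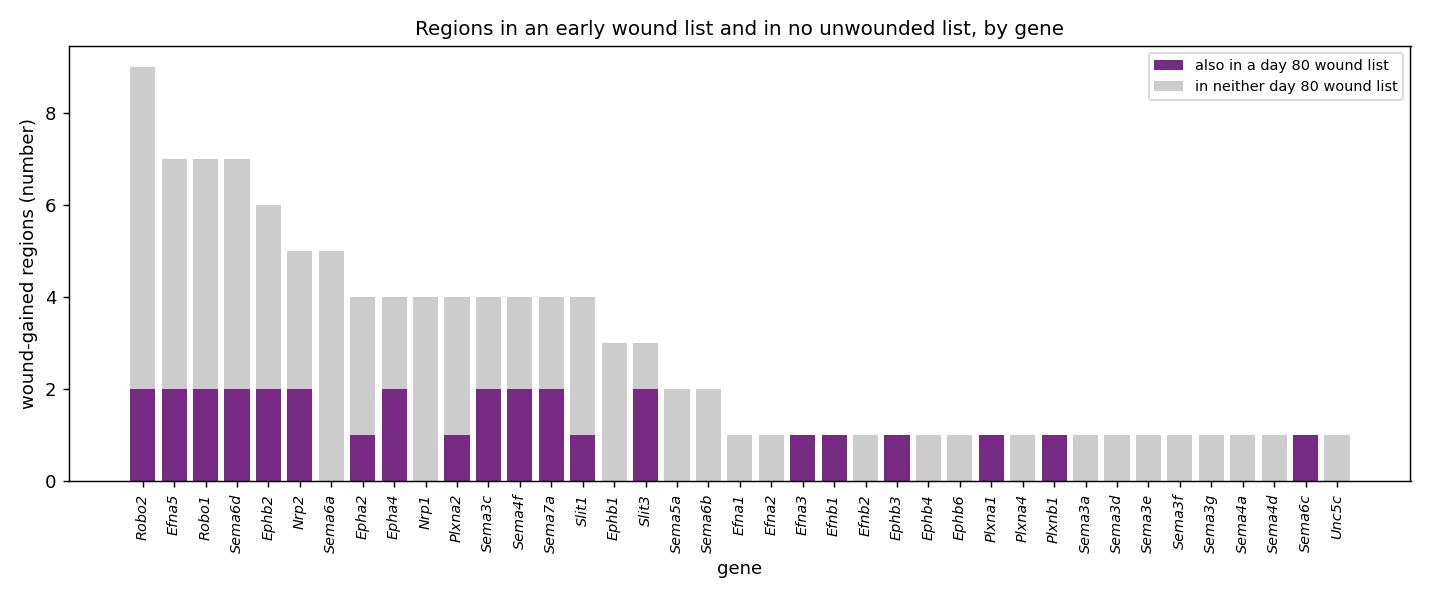
Number of wound-gained regions of each gene with at least 1 (bars), in purple those also in a day 80 wound list and in grey those in neither. Robo2 has 9, of which 2 are in a day 80 list, and Sema6a 5 and Nrp1 4, of which none is.

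After healing, the 2 wounds were set beside the day 80 epidermal list. Of 247 member regions in either list, 58 were in the epidermal and not the partial-thickness list (23.5%, 18.3 to 29.3), against 12.9% of all assigned regions, and 39 in the partial-thickness list alone (15.8%, 11.5 to 20.9), beside 17.6%. Slit3 lacked 8 epidermal regions there, Robo1 6, Sema5a 5, Sema6d 5, Dab1 4 and Plxna2 4. In the epidermal list those of Slit3 stood at percentiles 0.304 to 20.9, apart from chr11:35731361-35731600 at 48.7. Those of Robo1 stood at 7.58 to 16.8, apart from chr16:72536252-72537090 at 53.9, and those of Sema6d at 6.35 to 56.1. The lowest −log10 p was 7.864 in the epidermal and 21.04 in the partial-thickness list, and the part of this in the result was not tested. Without Robo1 and Dab1 the share was 22.0% (16.7 to 28.1). In the other genes of these pathways, described below, it was 17.3% (12.5 to 23.0). Beside the full-thickness list, 49 of 277 were in the epidermal list alone (17.7%, 13.4 to 22.7), against 14.7%, and 69 in the wound list alone (24.9%, 19.9 to 30.4), against 17.2%. Those 69 included 8 of Robo2, 7 of Robo1, 6 of Slit3, 5 of Sema6d and 4 of Sema4f. In the other genes of these pathways the full-thickness list alone held 21.2% (16.1 to 27.2).

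The 2 day 80 wound lists differed more at these genes in one direction. Of 267 member regions in either, the full-thickness list alone held 78 (29.2%, 23.8 to 35.1), against 14.8% of all assigned regions, and the partial-thickness list alone 39 (14.6%, 10.6 to 19.4), against 17.0%. In the other genes of these pathways these shares were 19.5% (14.5 to 25.4) and 15.0% (10.6 to 20.4). For the pairs of day 80 lists, no shares were computed for regions away from gene ends or in long genes alone. Of the 62 member genes with a region, 27 had more regions in the full-thickness list, 12 fewer and 23 the same number. Over all genes with a region, 17.4% had more and 21.6% fewer. The part of the members' higher median number of regions (4.5 against 2) in these counts was not tested. Sema6d had 1 region in the partial-thickness list and 10 in the full-thickness list. The partial-thickness list lacked even chr2:124609573-124611167, which the other 7 lists held at percentiles 6.13 to 65.1. Robo1 had 10 and 17 regions, Robo2 9 and 14 and Sema5a, in the other direction, 15 and 12. The threshold of the partial-thickness list was at a −log10 p of 21.04 and that of the full-thickness list at 7.978, and the part of this in the result was not tested.

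Of 51 other genes of these pathways (co-receptors, reelin receptors, adaptors and effectors of the cytoskeleton), 48 had regions, 391 in all. In the follicular list alone of the day 0 pair were 77 of 249 (30.9%, 25.2 to 37.1), beside 24.3% of all assigned regions, and in the epidermal list alone 67 (26.9%, 21.5 to 32.9), near the 28.0% of all. The hair follicle side was led by Farp1, whose protein binds plexins (8 regions), the Src family kinase gene Fyn (7), and, with 5 each, Rgma, which encodes a repulsive ligand of neogenin, Mical3, of a family that takes actin filaments apart, and Ablim1, which encodes an actin-binding protein. On the epidermal side stood Vav3, which acts behind Eph receptors (8), Dock1 (6), Vav2 (5) and Cntn1 (5). Of their epidermal regions, 43.3% (31.2 to 56.0) were in the day 3 partial-thickness list, near the 46.0% of all assigned regions, and 68.7% (56.2 to 79.4) in that of day 80, near the 72.4% of all. Of their 77 follicular regions, the day 3 partial-thickness list held 31.2% (21.1 to 42.7), beside 38.4% of all. That of day 80 held 7.79% (2.91 to 16.2), beside 22.7%. The full-thickness lists held 15.6% at day 7 and 10.4% at day 80, beside 27.4% and 19.6%. Low shares of follicular regions held were thus not particular to the members. Wound-gained regions numbered 96 (24.6%, 20.4 to 29.1), near the 24.2% of all assigned regions. Of the regions of each gene, they made up 7 of 28 at Vav3, 6 of 12 at Enah, an actin regulator, 6 of 12 at Srgap2, which binds Robo receptors, and 6 of 25 at Ablim1.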

How the data were processed

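The 24 samples of 8 groups came as 8 deposited peak lists of narrowPeak layout, matched to groups by the names they were deposited under. Per the submitters' processing notes, the tools included MACS2 2.1.1.20160309, bedtools 2.29.2, Picard and Bowtie, with mm10 as the build and no roles stated. Whether peaks were called on pooled reads is not stated there. Per the authors' deposited lists, each peak has a score, a fold enrichment (a ratio to its local background) and a −log10 p. The score and fold were used only to describe or rank peaks within a list, and the lowest −log10 p of each list to describe its threshold. No read counts are used here, so depth is unknown. A narrower peak or a higher threshold in a list can remove a weak region without a change in the cells.

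Peaks were merged into union regions (Python 3.11.15, pandas 2.3.3) and assigned to the nearest of 21896 protein-coding genes of a RefSeq table of GRCm38.p6 within 50 kb, ties going to the gene that starts first (2 member regions tied). Exons and UTRs are not in that table and were not used here. Gene ends are those of the longest gene model. Starts and promoter sequences came from RefSeq, with 62 of 72 members matched. Intervals used scipy 1.17.1. The merging and assignment were tested on simulated data. Genes were named by rule: up to 4 per family with the most regions in a class, plus Robo1, Dab1 and Epha2; other names describe starts that differ or counts by gene and were chosen after values were seen. The members, gene lists and classes were chosen with earlier results of these data known. Named pathway genes were up to 4 per class by number of regions, and on the hair follicle side also Ablim1, which tied with Rgma and Mical3. Alternatives were a 50% cover rule, the upper 50% of peaks, lists of equal length (29365 peaks), windows of 10 kb and 100 kb, the day 80 epidermal list as reference, and leaving out Robo1 and Dab1. Restricting to regions over 1 kb from a gene end or to genes longer than 100 kb was added after seeing the data.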

Additional observations from a re-analysis of the deposited data

Results flagged for a closer look

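From day 7 to day 80, 5 members changed their number of regions by at least 2 in opposite directions in the partial- and the full-thickness wound. With 1 list per group these differences were not tested. The same count was not made over all genes, so the 5 have no background. Members had a median of 4.5 regions per gene, against 2 for all genes with a region. The lowest −log10 p went from 40.19 to 21.04 in the partial-thickness and from 32.24 to 7.978 in the full-thickness lists. The part of these in the changes was not tested. Robo1 went from 12 to 10 regions in the partial-thickness and from 11 to 17 in the full-thickness lists, a difference between the changes of 8. Robo2 went from 14 to 9 and from 12 to 14 (difference 7). Sema6d went from 7 to 1 and from 8 to 10 (difference 8). Efna5 moved the other way, from 14 to 16 and from 17 to 13 (difference -6), as did Sema7a, from 0 to 2 and from 3 to 1 (difference -4).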

How the results depend on the processing

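Of 79 values of the 9 shares under the alternatives, 69 stayed within the 95% interval of the reported share. Requiring peaks to cover 50% of a region gave 35.2% of member regions in the follicular list alone (34.2% of all regions under the same setting), 28.9% wound-gained (31.1%) and 19.8% of these in a healed wound list (23.9%). The upper 50% of peaks gave 13.5% for the latter (25.4%) and 17.9% of follicular regions held at day 3 (39.8%). Lists of equal length gave 17.9% wound-gained (18.4%) and 43.9% of epidermal regions held in the day 80 partial-thickness list (67.6%). Without Robo1 and Dab1 the epidermal list alone held 30.3% (27.9%). Among genes longer than 100 kb, with Robo1 and Dab1 kept, it held 43.9% (33.5%). In those genes 5.26% of follicular regions were held at day 80 (12.0%). The cause of these moves was not tested. The member shares of epidermal regions held at days 3, 7 and 80 lay below those of all assigned regions under each alternative. With the upper 50% of peaks the gap was small at day 3, 38.9% (25.9 to 53.1) beside 43.1%. At day 80 it was 51.9% (37.8 to 65.7) beside 63.0%, and both intervals include the share of all regions. Of the member peaks, 38.2% (day 80 full-thickness) to 47.3% (day 0 epidermis) were in the upper 50% of their list. In 6 cases the member share changed sides. The hair follicle share fell below that of all regions away from gene ends (27.8% beside 29.7%) and in long genes (25.0% beside 30.1%). The healed share fell below it with the cover rule and with the upper 50% of peaks, and the wound-gained share rose above it with the 100 kb window (24.8%) and without Robo1 and Dab1 (24.7%). No paired analysis was possible because each group came as 1 list, and for the same reason no replicate could be left out. Depth is unknown, so a region missing from a list may be present below its threshold.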
